A study of Mus musculus with 6 samples.

Results

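Resting lymphocytes hold themselves out of the cell cycle by an active program. KLF and FOXO transcription factors keep genes of quiescence and recirculation on, BTG and TOB proteins recruit the CCR4-NOT complex that shortens poly(A) tails, and the inhibitor p27 blocks cyclin-dependent kinases. Signaling through PI3K and AKT opposes this program, since AKT phosphorylates FOXO factors and drives them out of the nucleus. The 10 genes described here are Klf2, Klf3, Klf4, Foxo1, Foxo3, Btg1, Btg2, Tob1, Cdkn1b, which encodes p27, and Pik3ip1, which encodes a membrane inhibitor of PI3K. They were chosen by name for these roles, with earlier results of these data known. All 10 were among the 46963 gene names in the count table and passed the filter on low counts.

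The study removed enhancers of the IgH locus in mice and sequenced RNA of their B-cells. Groups were wt mice, Eμ-deficient mice, which lack the intronic enhancer with its matrix attachment regions, and 3′RR-deficient mice, which lack the regulatory region at the 3′ end of the locus. All mice were young adults of both sexes on a 129 background. CD43- spleen cells, a fraction enriched in resting B-cells, were analysed unstimulated (resting) or after 2 days with 5 μg per ml lipopolysaccharide (LPS), a bacterial outer membrane component that drives B-cells to divide. The labels describe the resting cells as kept in medium for the same 2 days, whereas the study's methods describe them as taken before stimulation, so that time in culture and LPS cannot be told apart. There was 1 library per genotype and state, 6 in all, and each was a pool of 2 mice by the labels. The study's methods describe a second pool per genotype, which is not analysed here, so that no difference between mice of a group can be seen.

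Genes received between 9111974 and 21998587 counts per library. All 7 B-cell markers had at least 10 counts in every library. Their summed level was 2166 to 3234 CPM in resting and 1747 to 2090 CPM in LPS libraries. CPM are counts as a share of the library total, put on a common scale with edgeR's TMM method. Markers of 3 other cell types fell further with LPS. The summed level of 8 myeloid markers was 152 to 366 CPM in resting and 21.4 to 35.4 CPM in LPS libraries, that of 7 T-cell markers 17.1 to 35.0 and 1.24 to 5.43 CPM, and that of 7 erythroid markers 3376 to 20380 and 52.9 to 672 CPM. The highest resting value of these 3 lists was in the Eμ-deficient library each time. In LPS libraries, Mpo and S100a9 were at 0 in wt, Cd14 in 3′RR-deficient, Cd3e in wt and Cd8a in wt and 3′RR-deficient cells. Ighg3, which depends on the 3′RR, had 44.4 CPM in wt resting and 61.4 CPM in wt LPS cells against 0.0972 CPM in 3′RR-deficient resting cells and 0 counts, which allows up to 3 counts, in 3′RR-deficient LPS cells. The deleted segments themselves have no entry in the count table, and no gene of it checks the Eμ deletion.

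The 10 genes lie on 8 chromosomes (GENCODE M21 annotation of GRCm38, the build of the counts), and each is protein-coding. The KLF genes are Klf2 (chr8:72319033-72321656), Klf3 (chr5:64803388-64832901) and Klf4 (chr4:55527143-55532466). The FOXO genes are Foxo1 (chr3:52268336-52353221) and Foxo3 (chr10:42181841-42276755). Btg1 (chr10:96617006-96622809) shares a chromosome with Foxo3, Btg2 lies at chr1:134075170-134079120, Tob1 at chr11:94211454-94215495, Cdkn1b at chr6:134920401-134925513 and Pik3ip1 at chr11:3330401-3342971. Klf4, Foxo3 and Btg2 are on the minus strand. Antisense genes overlap exons of Klf3, Foxo1 and Pik3ip1, but none of these had more than 40 counts in a library. The processed copies Btg1-ps1 and Btg1-ps2 had at most 1 count.

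Promoters of the 10 genes, as given by RefSeq on GRCm38.p6, were searched on both strands from 250 nt before to 50 nt after the start of transcription. All 10 matched by symbol. 4 motif classes each occurred in a single promoter of the group, and the stretch of 90 nt around each is given with the motif in capitals, 5′ to 3′ on the strand of the gene.
Klf2, MEF2 motif, chr8:72318912-72319001: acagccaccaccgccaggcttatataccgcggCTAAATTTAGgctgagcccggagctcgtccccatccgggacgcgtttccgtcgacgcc
Klf4, E-box, chr4:55532606-55532695: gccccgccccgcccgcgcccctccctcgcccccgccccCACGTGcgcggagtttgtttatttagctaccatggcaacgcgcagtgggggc
Btg1, FOXO motif, chr10:96616756-96616845: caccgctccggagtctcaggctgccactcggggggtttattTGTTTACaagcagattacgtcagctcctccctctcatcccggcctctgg
Btg2, cyclic AMP response element, chr1:134079276-134079365: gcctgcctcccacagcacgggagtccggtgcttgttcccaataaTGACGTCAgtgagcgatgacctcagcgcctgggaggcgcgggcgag

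The FOXO motif GTAAACA was found in Btg1, 204 nt before its start and on the opposite strand, and in 3.65% of all 32851 promoters. A MEF2 motif was found in Klf2 at 118 nt and in 3.69% of promoters, CACGTG in Klf4 at 182 nt and in 7.15%, and TGACGTCA in Btg2 at 166 nt and in 1.79%. None of these 4 overlapped another motif searched. The short KLF motif CACCC was in 4 promoters of the group, those of Klf2, Klf3, Tob1 and Pik3ip1, and in 57.5% of all. CCAAT was in 5 (37.4% of all), TATAAA in those of Btg1 and Tob1 (13.6% of all) and GGGCGG in 9 (35.7% of all). Pik3ip1 was the promoter without GGGCGG, and it held 5 CpG in the 250 nt before its start, against 20 to 32 in the other 9 and a median of 6 over all promoters. The RefSeq start used for Pik3ip1, at 3330731, lies inside the GENCODE gene, which begins at 3330401. Both features of Pik3ip1 therefore hold for this start, and no other start of it was searched. Such matches describe letters in these windows and no binding was measured.

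In resting cells, Btg1 and Klf2 had the highest levels per length of the 10 genes. Per kb of exon, Btg1 had 167 ± 24.6 CPM (SD over 3 genotypes) and Klf2 164 ± 71.0, followed by Btg2 with 74.0 ± 22.6. Cdkn1b (22.8), Pik3ip1 (20.3), Klf4 (19.6) and Foxo1 (16.7) came next, and Foxo3 (9.99), Klf3 (5.37) and Tob1 (4.56) were lowest. Neighbours in this order had overlapping ranges over the 3 libraries except Btg2 and Cdkn1b, and Foxo3 and Klf3. In LPS-stimulated cells, Btg2 (36.1 CPM per kb) came before Btg1 (27.7), Cdkn1b (17.1), Klf2 (13.9), Foxo1 (6.21), Foxo3 (3.72), Tob1 (2.99), Klf3 (2.07), Pik3ip1 (1.74) and Klf4 (0.255). Here neighbours overlapped except Foxo1 and Foxo3, and Pik3ip1 and Klf4. Klf4 went from the middle of the order to its end and Cdkn1b from the fourth place to the third. Levels of all 10 genes by library are drawn in the plot of levels.

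**Figure D1:**
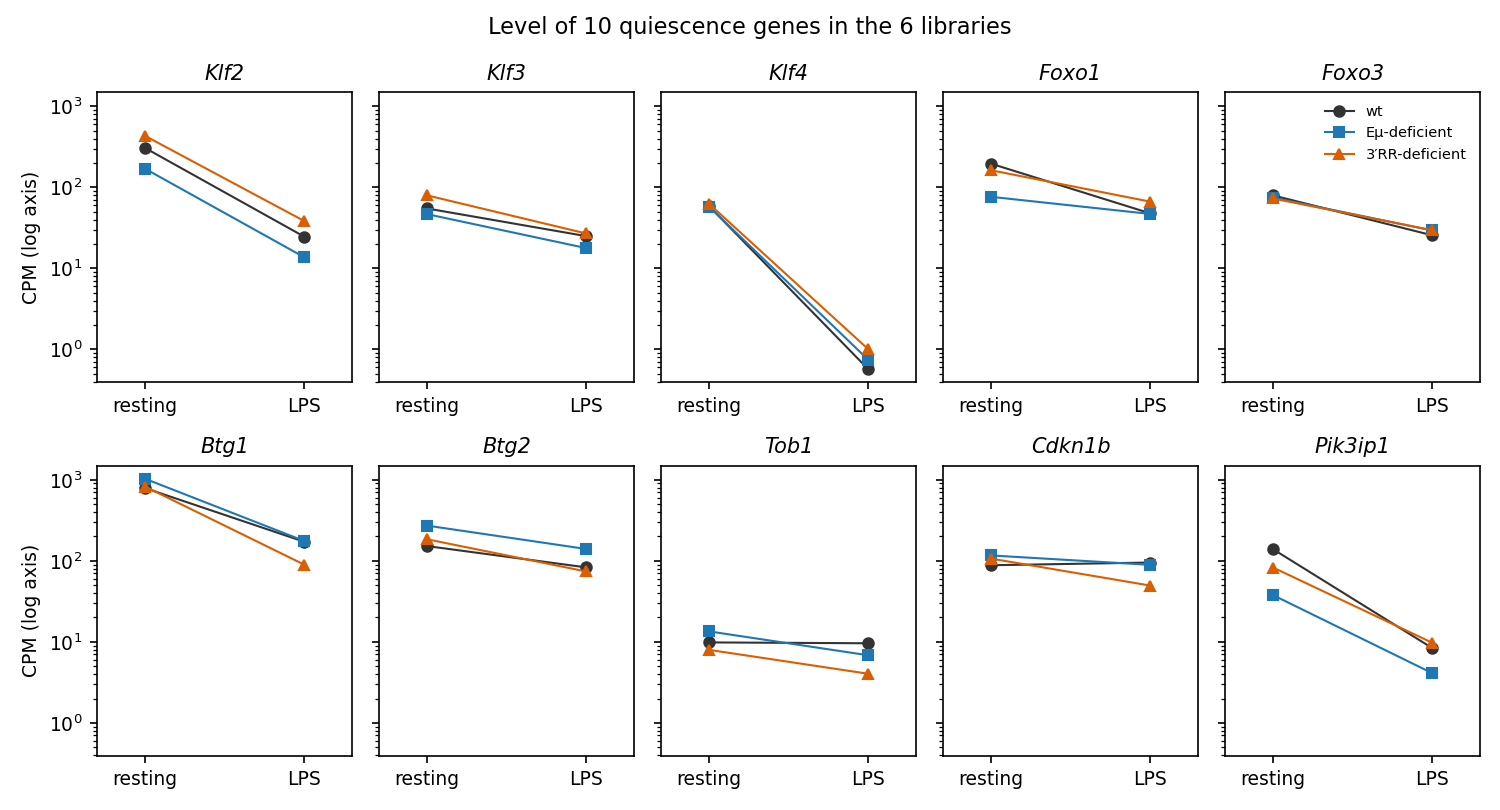
CPM of each of the 10 genes (log axis) in the resting and the LPS library of wt (circles), Eμ-deficient (squares) and 3′RR-deficient (triangles) B-cells, 1 library per point, lines joining libraries of a genotype. Klf4 drops from between 58.0 and 62.8 CPM to between 0.574 and 1.01 CPM, whereas the lines of Tob1 and Cdkn1b are nearly flat in wt.

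The comparison of LPS with resting cells asks how the quiescence program stands after 2 days of stimulation. Lower levels with LPS were called for 8 of the 10 genes by an edgeR quasi-likelihood model over the 6 libraries (adjusted p under 0.05), where 21.1% of 14600 genes tested were called lower and 19.7% higher. These were also the 8 with an unadjusted p under 0.05, a cut whose share over all genes was not counted. The Wald test of DESeq2 called 8 lower and 0 higher, against 2859 lower and 2857 higher among the 14600 genes. The median log2 fold change was -1.39 for the 10 genes and -0.07 for all genes tested. Since the genes were chosen with earlier results of these data known, the shares of all genes describe and do not test the group. The 8 genes called were also those whose 3 LPS values all lay below their 3 resting values, as in 27.3% of all genes. In bulk RNA, fewer cells of a type and less RNA per cell cannot be told apart, and CPM is a share of the RNA of a library. The model takes the 3 genotypes as pairs of libraries, so that its errors come from unequal LPS effects between genotypes and not from the spread between mice. Each gene has 2 residual degrees of freedom of its own against 7.06 borrowed from all genes. Its error and p-value thus rest more on the other genes than on its own 3 pairs.

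Klf4, which restrains proliferation of B-cells and is a known FOXO target, had the largest change. In resting cells it had 58.8 CPM in wt, 58.0 in Eμ-deficient and 62.8 in 3′RR-deficient cells, and with LPS 0.574, 0.749 and 1.01 CPM. The resting values are within 1.08-fold of each other, and the LPS values rest on 12, 8 and 9 counts. The difference was 79.5-fold (log2 fold change -6.31 ± 0.31 SE, adjusted p = 4.36e-05). Myeloid cells also express Klf4, and the sum of the myeloid markers given above fell in the same libraries. Its part in this result was not tested.

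Klf2, which sustains lymphocyte quiescence, had 306 CPM in wt, 170 in Eμ-deficient and 432 in 3′RR-deficient resting cells. With LPS it had 24.7, 13.8 and 38.5 CPM. The order of the genotypes was the same in both states, and the fall was of like size in each, 12.4-fold in wt, 12.3-fold in Eμ-deficient and 11.2-fold in 3′RR-deficient cells. The model gave a log2 fold change of -3.58 ± 0.26 (adjusted p = 6.65e-05). Once its dependence on GC content was taken out, the wt log2 ratio was -2.89 instead of -3.63, and the likeness of the 3 genotypes is less close. Klf3, a repressor of the same family, had 54.8, 46.7 and 79.7 CPM in resting and 25, 17.8 and 26.96 CPM in LPS cells (log2 fold change -1.36 ± 0.22, adjusted p = 0.00169). Its groups did not overlap either.

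Foxo1, the main FOXO factor of B-cells and a driver of genes such as Il7r, had 196 CPM in wt, 76.4 in Eμ-deficient and 162 in 3′RR-deficient resting cells. With LPS it had 47.8, 46.9 and 66.6 CPM. The resting level in Eμ-deficient cells stands apart from the other two and lies just above the highest LPS value. The log2 fold change was -1.34 ± 0.30 (adjusted p = 0.00678), with 4.10-fold lower levels in wt, 2.44-fold in 3′RR-deficient and 1.63-fold in Eμ-deficient cells. Foxo3, its close relative, had nearly equal levels in the 3 genotypes, 79.5, 74.6 and 72.8 CPM in resting and 25.6, 29.4 and 29.5 CPM in LPS cells. Its log2 fold change was -1.43 ± 0.22 (adjusted p = 0.00128).

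Btg1, which brings mRNAs to the CCR4-NOT deadenylase, was the gene of the group with the most counts. It had 790 CPM in wt, 1031 in Eμ-deficient and 825 in 3′RR-deficient resting cells, and 172, 176 and 90.0 CPM with LPS. The log2 fold change was -2.65 ± 0.31 (adjusted p = 0.000321). Btg2, its closest paralog and a known p53 target, had 152, 272 and 184 CPM in resting and 83.0, 140 and 73.9 CPM in LPS cells. The highest LPS value, in Eμ-deficient cells, lay just below the lowest resting value, in wt. The log2 fold change of Btg2 was -1.05 ± 0.24 (adjusted p = 0.00849), and this call was lost without either Eμ-deficient or either 3′RR-deficient library. The log2 fold change was -1.08 without the Eμ-deficient LPS and -1.10 without the Eμ-deficient resting library. It was -0.91 without the 3′RR-deficient LPS and -0.93 without the 3′RR-deficient resting library. Leaving out either library of a genotype takes out the same pair.

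Pik3ip1, which restrains PI3K at the membrane, had 139 CPM in wt, 37.8 in Eμ-deficient and 82.7 in 3′RR-deficient resting cells. With LPS it had 8.41, 4.12 and 9.77 CPM. Every LPS value was far below every resting value, and the resting values differed 3.69-fold among genotypes, the widest range of the 10 genes in resting cells. The log2 fold change was -3.46 ± 0.29 (adjusted p = 9.16e-05).

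Tob1 and Cdkn1b were not called. Tob1, a BTG relative, had 9.85, 13.5 and 7.97 CPM in resting and 9.61, 6.84 and 4.04 CPM in LPS cells. Its log2 fold change was -0.65 ± 0.30 (adjusted p = 0.118), and the values of the 2 states overlapped. Cdkn1b had 88.2, 117 and 107 CPM in resting and 95.2, 89.3 and 49.5 CPM in LPS cells. Its log2 ratio of LPS over resting was 0.11 in wt, -0.38 in Eμ-deficient and -1.10 in 3′RR-deficient cells. The model gave a log2 fold change of -0.46 ± 0.28 (adjusted p = 0.219). Both depended on the wt pair. Without the wt LPS library the log2 fold change was -0.97 for Tob1 and -0.73 for Cdkn1b, and without the wt resting library -0.96 and -0.72. Leaving out either library takes out the same pair, so these are not separate checks. p27 is known to be controlled mainly through degradation of the protein, which RNA does not show.

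**Figure D2:**
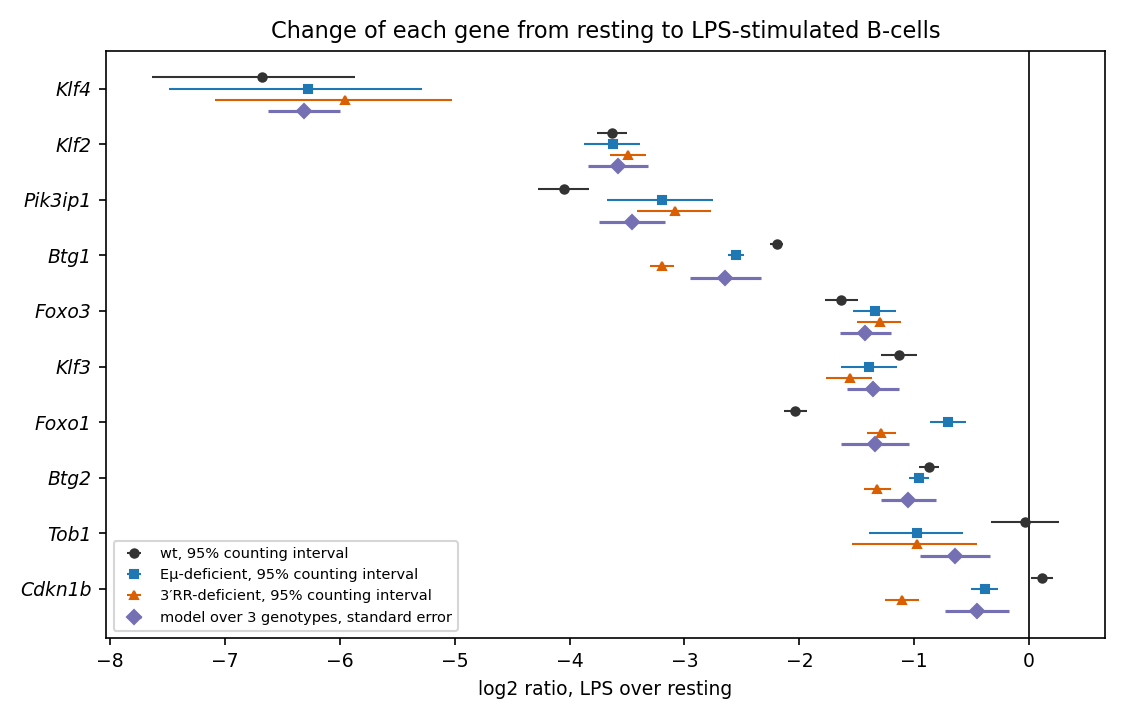
Log2 ratio of LPS over resting for each gene, in each genotype (points with exact 95% intervals of the counts) and in the edgeR model over 3 genotypes (diamonds with standard error), ordered by the model. Klf4, Klf2 and Pik3ip1 lie furthest left, and the wt points of Tob1 (-0.04) and Cdkn1b (0.11) lie at or right of 0.

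Within a genotype there is 1 library per state and no test, and counting intervals compare these libraries only. At least 2-fold lower levels with LPS were seen for 7 of the 10 genes in wt (25.4% of all genes), 6 in Eμ-deficient (19.9%) and 9 in 3′RR-deficient cells (21.0%). None was at least 2-fold higher in a genotype, as 21.4%, 17.0% and 18.6% of all genes were. Foxo1 was past 2-fold in wt and 3′RR-deficient cells and not in Eμ-deficient cells (log2 ratio -0.70, 95% interval -0.86 to -0.55). Btg2 (log2 ratio -1.32, interval -1.44 to -1.20) and Cdkn1b (-1.10, interval -1.26 to -0.96) were past 2-fold in 3′RR-deficient cells. With total-count scaling Btg2 was past 2-fold in wt too (-1.12), and with the GC trend removed Cdkn1b was not past it in 3′RR-deficient cells (-0.88). In wt, Cdkn1b stood at 0.11 (interval 0.02 to 0.21), which became -0.14 with scaling by the total count and -0.22 with the GC trend removed. Total-count scaling moved every log2 ratio of LPS over resting in wt by -0.25 and no other comparison of LPS with resting by more than 0.02.

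Mutant and wt cells were compared over both states in the same model, where 0 of the 10 genes were called in either direction. The resting and the LPS library of a genotype stand in for replicates here. The p-values therefore do not measure the spread between mice. For the Eμ deletion, 0.253% of genes tested were called lower and 0.911% higher. For the 3′RR deletion, 0.507% were called lower and 0.171% higher. An unadjusted p under 0.05 was reached by 3 genes for the Eμ deletion (Klf2, Btg2 and Pik3ip1) and 0 for the 3′RR deletion. The share of all genes under this cut was not counted. The Wald test of DESeq2 called 1 (Pik3ip1) and 0. The largest difference was that of Pik3ip1 in Eμ-deficient cells, with a log2 fold change of -1.51 ± 0.33 (adjusted p = 0.0773). It passed the threshold in 6 of 12 alternatives. Among those with all libraries, it passed with the Wald test (adjusted p = 0.00433, 0.432% of genes called lower) and with the GC trend removed (0.0261, 0.329%). It also passed with no filter on low counts (0.000564, 121 genes called lower). It did not pass with total-count scaling (0.106), DESeq2 size factors (0.0717) or a filter of 50 counts (0.0865). Its log2 fold change stayed negative whichever library was left out. It was largest without the wt LPS library (-1.91) and smallest without the wt resting library. Such fits keep 1 library of a genotype, so their p-values are not given here.

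Pik3ip1 was lower in both Eμ-deficient libraries than in their wt partners, 3.69-fold in resting and 2.04-fold in LPS cells, where it rested on 44 counts against 176. On the log2 scale this was -1.88 in resting cells (interval -2.02 to -1.74) and -1.03 in LPS cells (interval -1.54 to -0.55). Klf2 was 1.80-fold lower in Eμ-deficient resting and 1.80-fold lower in LPS cells, with a log2 fold change in the model of -0.85 ± 0.29 (adjusted p = 0.332). Its resting log2 ratio of -0.85 became -0.34 with the GC trend removed. Btg2 pointed the other way, 1.79-fold higher in resting and 1.69-fold higher in LPS cells (model log2 fold change 0.79 ± 0.30, adjusted p = 0.403).

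The Foxo1 ratio was unlike in the 2 states, which 1 library each does not allow to test. In resting cells the Eμ-deficient library had 2.57-fold less Foxo1 than wt (log2 ratio -1.36, interval -1.46 to -1.26), and in LPS cells the log2 ratio was -0.03 (interval -0.18 to 0.13). Foxo1 and Pik3ip1 were the 2 genes of the group at least 2-fold lower in resting Eμ-deficient cells (5.62% of all genes), and Pik3ip1 was the single one in LPS cells (3.40% of all genes). No gene of the group was 2-fold higher in Eμ-deficient cells (12.6% of all genes in resting and 9.12% in LPS cells) or in 3′RR-deficient cells (5.38% and 15.9%). Over both states, the model gave Foxo1 a log2 fold change of -0.70 ± 0.36 in Eμ-deficient cells (adjusted p = 0.713). It was -1.21 without the wt LPS library and -0.19 without the wt resting library. The resting Eμ-deficient library had a summed level of erythroid markers of 20380 CPM against 3376 in wt, of myeloid markers of 366 against 152 and of B-cell markers of 2166 against 2908. Proliferation genes summed to 237 CPM in this library, against 96.6 in wt and 166.5 in 3′RR-deficient resting cells. The study also cites an earlier report that this Eμ-deficient model lacks follicular B-cells. The part of these differences in the lower Foxo1 and Pik3ip1 was not tested.

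In 3′RR-deficient cells, 0 genes of the group were at least 2-fold lower in resting cells (3.95% of all genes) and 1, Tob1, in LPS cells (10.7% of all genes). Tob1 had 36 counts in the 3′RR-deficient and 201 in the wt LPS library, a log2 ratio of -1.25 (interval -1.80 to -0.73). The model gave -0.78 ± 0.37 (adjusted p = 0.914). Its log2 fold change was -1.25 without the wt resting library and -0.31 without the wt LPS library. Btg1 and Cdkn1b were lower than wt in LPS cells, with a log2 ratio of -0.94 for Btg1 (interval -1.05 to -0.83) and of -0.94 for Cdkn1b (interval -1.09 to -0.79), which became -0.45 and -0.46 with the GC trend removed. Klf2 was higher in 3′RR-deficient resting cells (log2 ratio 0.50, interval 0.45 to 0.54) and in LPS cells (0.64, interval 0.44 to 0.84), but the latter was -0.08 with the GC trend removed. Pik3ip1 was 1.68-fold lower in resting cells (log2 ratio -0.75, interval -0.84 to -0.66) and stood at 0.22 in LPS cells (interval -0.17 to 0.59).

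The 3′RR-deficient and wt LPS libraries were the pair that differed most in technical measures. Over 35 spike-in RNAs the log2 ratio of this pair had an SD of 1.27, against 0.157 for the resting pair, and over genes it rose with GC content (Spearman's rho of 0.56 across genes, which are not independent replicates). Whether all libraries had the same spike-in mix is not given in the sources used here. Exons of Klf2 have the highest GC content of the group, 61.6%, and those of Btg1 and Cdkn1b the lowest, 43.1% each.

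**Figure D3:**
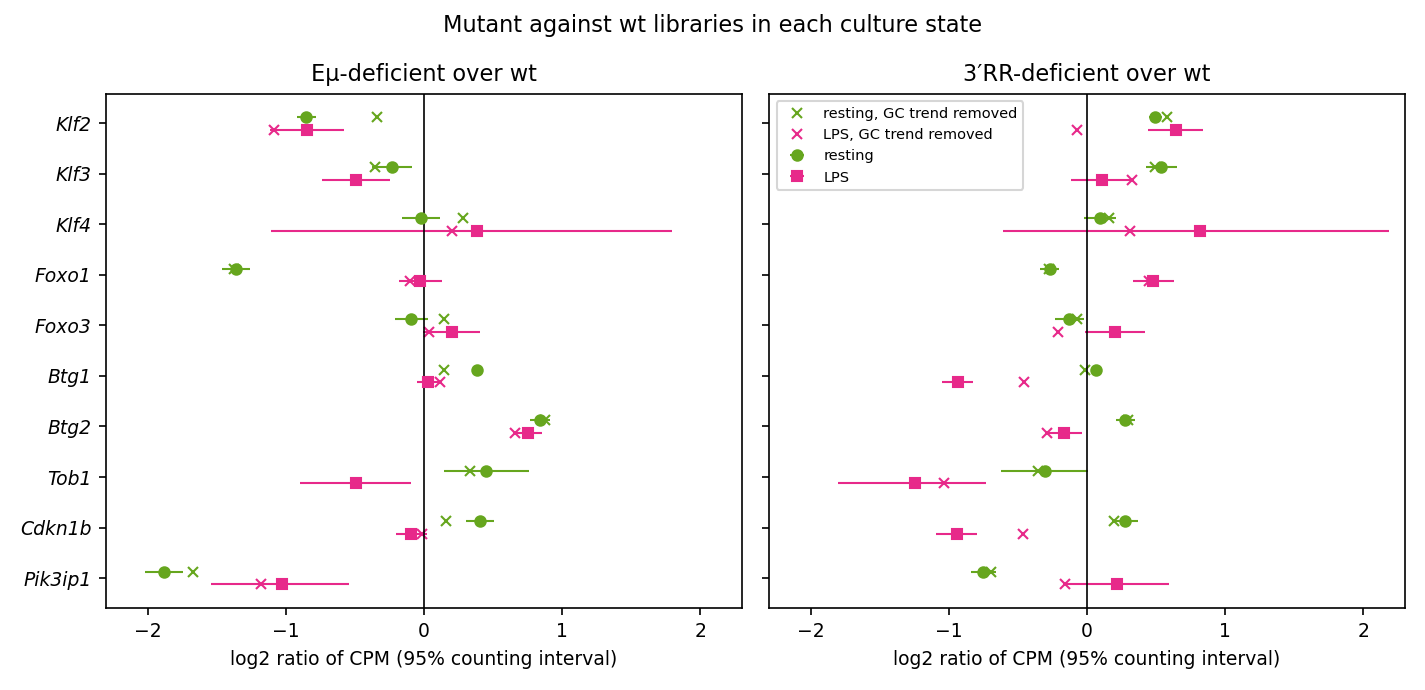
Log2 ratio of each mutant library over the wt library of the same state (circles resting, squares LPS) with exact 95% counting intervals, and the ratio with the GC trend removed (crosses). Pik3ip1 lies left of 0 in both states for the Eμ deletion, Foxo1 in resting cells, and the LPS ratios of Klf2, Btg1 and Cdkn1b for the 3′RR deletion move towards 0 when the GC trend is removed.

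Relatives of these genes outside the group were also mostly lower with LPS. Of all genes tested, 21.1% were called lower and 19.7% higher. The lists of this and the next paragraphs were chosen with earlier results of these data known. Of 13 other KLF genes, 11 were tested and 9 were called, all of them lower, with a median log2 fold change of -1.97. Klf6, a factor induced by many stimuli, went from 285, 530 and 477 CPM in wt, Eμ-deficient and 3′RR-deficient resting cells to 26.2, 35.4 and 20.1 CPM (log2 fold change -3.97 ± 0.32, adjusted p = 8.21e-05), and Klf11 had a log2 fold change of -3.69 ± 0.30 (adjusted p = 8.18e-05). Of the other FOXO, BTG and TOB genes, 3 of 5 were tested and 2 were called lower, Tob2 (-0.99 ± 0.27, adjusted p = 0.0186) and Foxo4 (-0.75 ± 0.25, adjusted p = 0.0388).

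Genes known to respond to FOXO factors or KLF2 were lower as well. Of 16 tested out of 18, 13 were called, all of them lower (21.1% of all genes), with a median of -1.17. Irs2, an adaptor of insulin signaling and FOXO target, went from 690, 295 and 482 CPM to 6.84, 26.98 and 35.8 CPM (log2 fold change -4.53 ± 0.63, adjusted p = 0.000722). S1pr1, the receptor for exit from lymphoid tissue and a KLF2 target, had a log2 fold change of -2.82 ± 0.25 (adjusted p = 0.000101). Of 11 other quiescence genes, 6 were called lower and 1 higher (21.1% and 19.7% of all genes). Among those lower were Tsc22d3, which encodes the glucocorticoid-induced protein GILZ (-5.57 ± 0.33, adjusted p = 5.54e-05), and Zfp36l2, whose protein promotes decay of AU-rich mRNAs (-2.96 ± 0.29, adjusted p = 0.000151). Slfn2, known to protect lymphocyte quiescence, was the 1 called higher (1.20 ± 0.32, adjusted p = 0.0151).

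Of 13 CCR4-NOT and poly(A)-binding genes, all tested, 3 were called, all of them higher (median 0.21), a share near the 19.7% of all genes called higher. They included Rqcd1, the CCR4-NOT subunit now named Cnot9 (1.55 ± 0.23, adjusted p = 0.000949), and Pabpc4 (0.88 ± 0.26, adjusted p = 0.0238). Of 12 genes for CDK inhibitors and for the degradation of p27, 11 were tested. Of these, 5 were called, all of them higher (19.7% of all genes, median 1.09). Cks1b, the cofactor that presents p27 to its ubiquitin ligase, went from 3.80, 5.30 and 5.44 CPM to 69.8, 64.2 and 47.5 CPM (3.63 ± 0.29, adjusted p = 7.91e-05). Cdkn2a, another inhibitor locus, stayed at or under 2.02 CPM in every library (4.06 ± 0.69, adjusted p = 0.002). The 6 proliferation genes were all called higher (19.7% of all genes). Their summed level was 96.6 to 237 CPM in resting and 1336 to 1407 CPM in LPS cells.

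In the PI3K and AKT branch, 21 genes were tested, 7 were called lower and 1 higher (21.1% and 19.7% of all genes, median -0.43). Sgk1, an AKT-related kinase that also phosphorylates FOXO factors, was the lowest (-3.70 ± 0.28, adjusted p = 7.11e-05), followed by Pik3cb, a catalytic subunit (-2.48 ± 0.31, adjusted p = 0.000429). Pik3r6, a regulatory subunit, was the 1 called higher (1.03 ± 0.35, adjusted p = 0.0431).

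**Figure D4:**
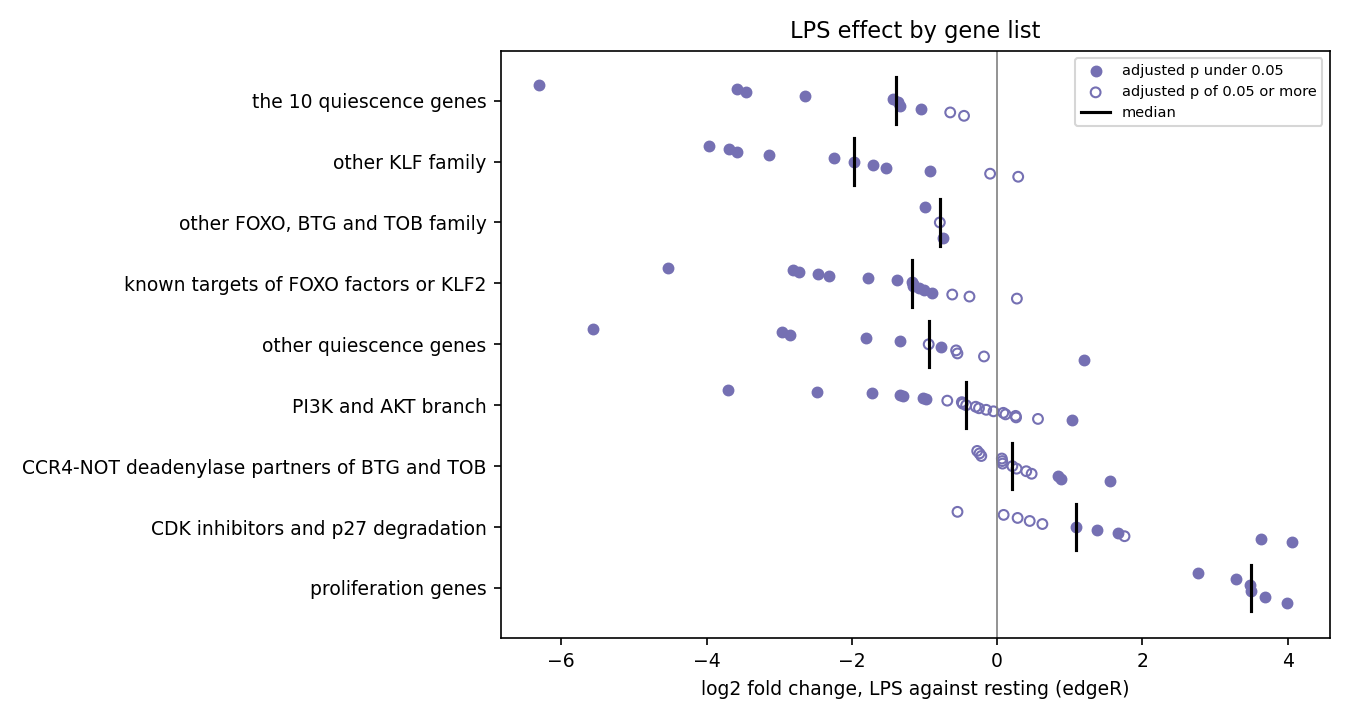
Log2 fold change of LPS against resting from the edgeR model for every gene tested in each list, filled where the adjusted p is under 0.05, with the median as a bar. Medians run from -1.97 for other KLF genes and -1.39 for the 10 quiescence genes to 1.09 for CDK inhibitors with p27 degradation and 3.49 for proliferation genes.

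Genes with the most similar pattern over the 6 libraries were sought for the 3 genes with the largest LPS effect, as the smallest root mean square difference of centred log2 CPM among 7914 genes with a mean of at least 10 CPM. Nearest to Klf4 were Tsc22d3 (0.38) and Itgax (0.39), the latter an integrin of dendritic and myeloid cells. Nearest to Pik3ip1 were Zfp36l2 (0.39) and Satb1 (0.50), and both had their lowest resting value in Eμ-deficient cells, as Pik3ip1 had. Nearest to Klf2 were RP23-174K7.2 (0.50) and Kdm6b (0.52), a histone demethylase. These are descriptions over 6 libraries that share the large LPS effect. The genes were picked for likeness over these same libraries, so that shared low values follow from the search.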

How the data were processed

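RNA of CD43- spleen cells was depleted of ribosomal RNA, made into stranded libraries and sequenced with paired reads. The authors mapped them to mm10 with STAR 2.4.0a and Ensembl gene models and deposited raw counts per gene name from featureCounts (Subread 1.4.6-p1), multi-mapping reads included, so near-identical copies can exchange reads. At 29 places where a gene lies antisense in a coding exon, it had a median of 0.579% of the counts per nt of its host (highest 20.5%), so the counts follow the sense strand.

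The 92 spike-in RNAs (4.75% to 7.1% of counts) name no gene and were left out of library sizes. Of 46963 names, 44895 were found in GENCODE M21, 764 of them under an older name. An additive model of genotype and state was fitted with edgeR 4.0.16 (R 4.3.3, quasi-likelihood F-test, TMM) to the 14600 genes that reached 10 counts in 2 or more libraries. P-values were adjusted by Benjamini and Hochberg, with a threshold of 0.05. The model has 2 residual degrees of freedom per gene before sharing across genes, and was tested on simulated data. Ratios of 2 libraries have no test and carry an exact conditional binomial (Clopper-Pearson) 95% interval (scipy 1.17.1) that covers counting error alone, amplified reads being copies of shared molecules. The labels give no batch.

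Alternatives were total-count scaling, DESeq2 size factors, the DESeq2 1.42.0 Wald test, other filters, a prior count of 2, removal of each library's trend on GC content (lowess span of 0.3), no genotype term, and leaving out each library. The genes and lists were chosen with earlier results of these data known. All 10 genes are named, and of each list the 2 largest rises and falls with LPS among called genes with 1 sign in all genotypes. Of the lists of other cell types, sums alone are printed. Called lower with LPS were 8 of 8 myeloid, 7 of 7 erythroid and 6 of 6 T-cell markers tested. So were 2 of 3 endothelial and stromal and 2 of 7 B-cell markers tested, and 21.1% of all genes. Promoters came from RefSeq. Protein sequences were not used here.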

Additional observations from a re-analysis of the deposited data

Results flagged for a closer look

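In 3′RR-deficient cells, 4 genes had log2 ratios over wt of opposite sign in the resting and the LPS library with both counting intervals clear of 0. With 1 library each, none of these differences was tested. The share of all genes with such a change of sign was not counted. The LPS pair is also the one that differed most in technical measures. Foxo1 went from -0.27 to 0.48, a difference of LPS minus resting of 0.75, which was 0.72 with the GC trend removed. Btg1 went from 0.06 to -0.94, a difference of -1.0 (-0.44 with the GC trend removed). Its resting ratio was -0.13 with total-count scaling and -0.01 with the GC trend removed, so that both states then had 1 sign. Btg2 went from 0.28 to -0.17, a difference of -0.45 (-0.58 with the GC trend removed). Cdkn1b went from 0.27 to -0.94, a difference of -1.22 (-0.66 with it removed). In Eμ-deficient cells, Tob1 went from 0.45 to -0.49, a difference of -0.94 that rests on 73 counts in the LPS library and was -0.82 with the GC trend removed.

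Cdkn1b was also the 1 gene of the 10 whose ratio of LPS over resting had both signs among the genotypes. It was 0.11 in wt and -1.10 in 3′RR-deficient cells, a difference between the highest and the lowest genotype of 1.22 on the log2 scale. This was not tested, and the wt value was below 0 with total-count scaling or the GC trend removed.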

How the results depend on the processing

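The LPS effect kept its direction for all 10 genes under every alternative run, and 8 genes stayed called lower under every setting that used all 6 libraries, the fit with no genotype term included. Leaving out a library of either mutant genotype lost the call of Btg2, as given above. Leaving out a wt library moved Tob1 and Cdkn1b further below 0. Such fits leave a genotype without its pair of libraries, so their counts of LPS calls are not given. The labels carry no replicate numbers, and libraries were paired by genotype alone. Genes called higher with LPS numbered 2883, and 1875 to 3450 when a library was left out.

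For the deletions the counts of calls over all genes moved more than those of the 10 genes. Genes called higher for the 3′RR deletion numbered 25, against 56 with the Wald test of DESeq2, 135 with no filter and 38 to 821 without a library, and genes called lower 74, against 122, 204 and 70 to 700. Genes called higher for the Eμ deletion numbered 133, against 277, 484 and 166 to 717, and genes called lower 37, against 63, 121 and 28 to 513. Of the 10 genes, 0 were called lower for the Eμ deletion, against 1 with the Wald test, 1 with the GC trend removed, 1 with no filter and 0 to 2 without a library, and 0 for the 3′RR deletion, against 0 to 1 without a library. At least 2-fold lower in Eμ-deficient LPS cells was 1 gene, Pik3ip1, against 0 with total-count scaling and 2 with the GC trend removed. The cause of these changes was not tested, except that a left-out library leaves 1 residual degree of freedom. The residual leaves the spread between mice unmeasured, and Klf4 with LPS is limited by its 8 to 12 counts. Of 70 ratios between libraries, 7 changed sign with the GC trend removed, 4 with total-count scaling, 1 with DESeq2 size factors and 0 with a prior count of 2.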
